A study of Danio rerio with 14 samples.

Results

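The question here was which genes answered the dioxin TCDD differently in zebrafish embryos that lack a working ahrra. For each gene the change from DMSO to TCDD in wild-type embryos was subtracted from the same change in ahrra-null embryos, and this difference of 2 log2 fold changes is called the interaction below. A positive interaction means a higher value of the TCDD change in ahrra-null, which can be a stronger rise or a smaller fall. All 14 of the 14 RNA-seq libraries of the series entered it. The groups were 3 libraries of wild-type embryos with carrier (replicates 2, 3 and 4), 3 of wild-type embryos with TCDD (replicates 6, 7 and 8), 4 of ahrra-null embryos with carrier (replicates 9 to 12) and 4 of ahrra-null embryos with TCDD (replicates 13 to 16). Every group is labelled with the Tupfel longfin strain, and the null line was made with zinc finger nucleases. All embryos received 0.01% DMSO or 2 nM TCDD at 6 h post-fertilization (hpf) in a bath of 1 h, were rinsed, and were collected at 72 hpf. Whether the null line descends from a single founder, how many embryos were pooled per library and which clutches they came from are not stated. The p-values therefore reflect the spread among these libraries, which may be technical.

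The aryl hydrocarbon receptor (AHR) is a cytoplasmic protein that enters the nucleus when it binds a ligand such as TCDD, pairs with ARNT and switches on genes for xenobiotic metabolism, above all those of the cytochrome P450 family 1. In zebrafish the receptor encoded by ahr2 carries most of the toxicity of TCDD, which in embryos affects the heart, the jaw and the circulation. Among the induced genes is that of the AHR repressor (AHRR), a relative of the receptor that binds ARNT and lacks a transactivation domain, so that AHR signalling feeds back on itself. Zebrafish carry a pair of such repressor genes, ahrra and ahrrb.

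The libraries held 16.9 to 23.1 M (mega) counts over 32105 listed genes, of which 21606 passed a filter on low counts. Levels below are CPM, read counts scaled to the depth of each library. Log2 differences carry ± SE, where the SE is the size of the difference over the square root of edgeR's F statistic, an approximation, and p-values adjusted by Benjamini-Hochberg over all 21606 genes come from edgeR's quasi-likelihood test unless another tool is named. The libraries were unstranded, so reads of overlapping or antisense genes cannot be told apart. In a principal component analysis the genotypes lay apart on the first component (43.1% of the variance) and the exposures on the second (13.1%). On the second component ahrra-null TCDD replicate 15 stood at -5.97, nearer to the carrier libraries than the other 3 of its group, at -13.7 to -15.0, and results that rest on it are given with and without it. It was not the only library to stand apart. On the third component wild-type DMSO replicates 2 and 4 had the lowest and highest values of any library, at -21.1 and 18.9.

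No gene passed the interaction test at an adjusted p under 0.05 with all 14 libraries (0 of 21606, 0%). At an unadjusted p under 0.05 there were 1117 genes (5.17%), 627 with a positive interaction (2.9%) and 490 with a negative one (2.27%). The smallest adjusted p of any gene was 0.277, and an unadjusted p of 2.31e-06 would have been needed for a single call. In the same model 185 genes passed for the TCDD effect in wild type (0.856%), of which 104 rose (0.481%) and 81 fell (0.375%). For the TCDD effect in ahrra-null 254 passed (1.18%), of which 176 rose (0.815%) and 78 fell (0.361%). Other tools named a few interaction genes, with 786 genes at an unadjusted p under 0.05 in DESeq2 and 1918 in voom: DESeq2 called 8 and limma voom with sample weights called 6, with klf2b, NPAS4, histh1l1 and cyt1 in both sets. Without the robust option edgeR called 1, NPAS4. Leaving out a library gave 0 to 10 calls. The 10 came without wild-type DMSO replicate 4, 2 without ahrra-null TCDD replicate 15, 1 without ahrra-null TCDD replicate 16 and 1 without ahrra-null DMSO replicate 12. Those 10 were all positive and included cyt1 and histh1l1, and 2255 of 21834 genes then had an unadjusted p under 0.05.

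**Figure D1:**
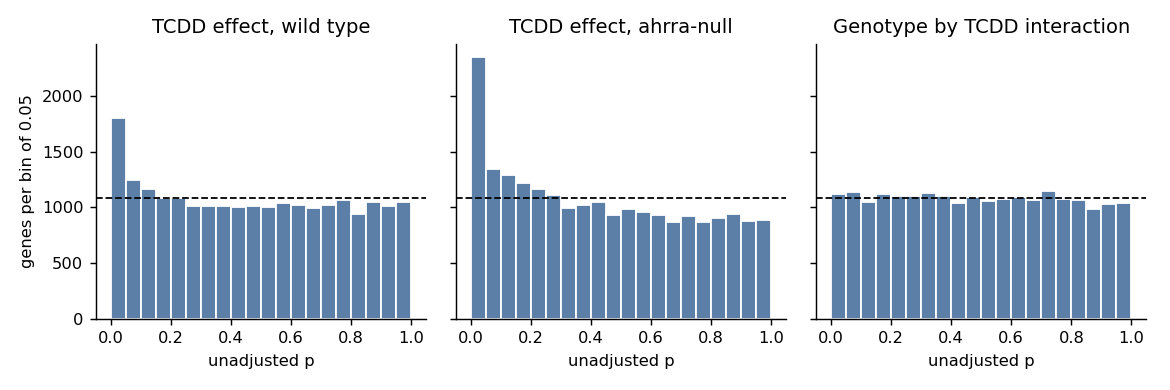
The number of tested genes is plotted in each bin of 0.05 of the unadjusted p, with a panel for the interaction and for the TCDD effect in each line, and the dashed line marks an even spread. The interaction panel lies near that line (1117 genes in its lowest bin), while the lowest bins of the TCDD effects hold 1804 genes for wild type and 2347 for the null line.

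The width of the intervals shows how closely the interaction of a single gene was estimated. It does not show which differences could have been called, since a lone call among all genes needed an unadjusted p of 2.31e-06 in the interaction test. The Benjamini-Hochberg adjustment allows a larger p only where several genes are called together. klf2b, for example, was not called at 0.90 ± 0.17. The 95% interval of the interaction reached 0.311 on the log2 scale to either side of the estimate for the median gene, a 1.24-fold change. It reached 0.894 for genes with an average log2 CPM under 1, 0.384 from 1 to 4, 0.209 from 4 to 7 and 0.175 at 7 and over. For 18423 genes (85.3%) the whole interval lay within a 2-fold difference in either direction. The same held for 273 of the 346 genes called for TCDD in either line (78.9%), so for the others a 2-fold difference in response lies within the interval.

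The TCDD responses of the lines share no library and can therefore be set side by side. Of the 185 genes called in wild type, 180 (97.3%) moved in the same direction in ahrra-null, 144 of them with an unadjusted p under 0.05 there, and 0 moved the other way at that level. Over all genes 10.9% had such a p in ahrra-null, counting both directions. The share of all genes with the same direction in both lines was not computed. The 104 that rose in wild type had a median change of 0.685 there and 0.569 in ahrra-null (log2), and the 81 that fell had median falls of 0.646 and 0.305. Genes selected for passing in a line tend to have their estimate there on the high side, so these medians do not show a smaller response in the other line. The reverse selection gave the reverse order. Of the 254 genes called in ahrra-null, 233 (91.7%) moved in the same direction in wild type, 167 at an unadjusted p under 0.05 (8.35% of all genes, counting both directions), and 1 moved the other way at that level. The 176 that rose had medians of 0.581 in ahrra-null and 0.383 in wild type, and the 78 that fell had median falls of 0.383 and 0.172. The 93 genes called in both lines (50.3% of the wild-type calls and 36.6% of the ahrra-null calls) all moved in the same direction, with median sizes of 0.755 in wild type and 0.673 in the null line. No gene at all passed the test of the difference, so this holds for the 92 called in wild type alone and the 161 called in ahrra-null alone. At an unadjusted p under 0.05 in that test stood 47 of the 92 and 68 of the 161 (5.17% of all genes). These sets were selected for passing in 1 line only, which favours a difference, so the counts do not show unlike responses.

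**Figure D2:**
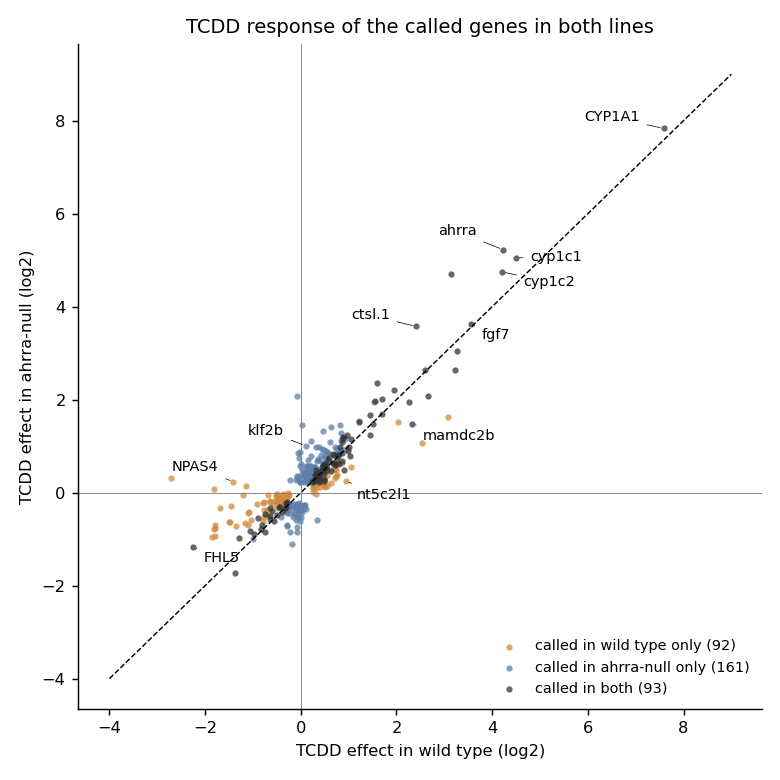
Each point is a gene called for TCDD in at least 1 line, with the log2 TCDD effect in wild type on the horizontal axis and that in ahrra-null on the vertical axis, coloured by where it was called (92, 161 and 93 genes), and the dashed line marks equal effects. CYP1A1 lies at the upper end, close to the line at 7.59 and 7.83, while NPAS4 and nt5c2l1 lie to the sides of it at -1.41 and 0.23 and at 0.93 and 0.25.

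Most AHR target genes were induced in both lines. Of 20 tested members of the list, 13 rose with TCDD in wild type (0.481% of all genes) and 12 in ahrra-null (0.815% of all genes), the exception being wfikkn1, whose wild-type rise was 2.03 ± 0.48 (adjusted p = 0.0468) against 1.52 ± 0.46 in ahrra-null (adjusted p = 0.142). For the 12 that rose in both, the median log2 rise was 2.64 in wild type and 3.1 in ahrra-null. Their interaction was positive for 10 of 12, with a median of 0.241. Over the list of 20 the interaction was positive for 17, against 52.0% of all genes, and its median was 0.0732, against 0.00749 over all genes. That count was 11 with 1 surrogate variable (median 0.0361), 12 without ahrra-null TCDD replicate 13 (0.0464) or 16 (0.129), 13 without wild-type DMSO replicate 3 (0.106) and 15 without wild-type DMSO replicate 4 (0.169). At an unadjusted p under 0.05 stood 1 of the 20, ctsl.1, against 5.17% of all genes. The interval lay within 2-fold for 11 of them and reached past it for 9, the strongly induced genes among them, whose CPM spread widely in the ahrra-null TCDD group.

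CYP1A1 (ENSDARG00000098315), the monooxygenase whose induction is the usual marker of AHR activation, was induced strongly in both lines. It measured 6.61, 8.06 and 5.56 CPM in wild-type DMSO and 1553, 1011 and 1337 CPM in wild-type TCDD. In ahrra-null it measured 4.78, 4.36, 3.35 and 3.75 CPM with DMSO and 1057, 1103, 465 and 1094 CPM with TCDD. The exposed libraries lay far above the carrier libraries in both lines, and replicate 15 was the lowest exposed library. The log2 rise was 7.59 in wild type and 7.83 in ahrra-null, and the interaction was 0.25 ± 0.53 (95% interval -0.92 to 1.42, adjusted p = 0.987).

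cyp1c1 (ENSDARG00000101195) and cyp1c2 (ENSDARG00000101789), neighbouring members of the same enzyme family found in fish, were the P450 genes with the larger interaction estimates. cyp1c1 stood at 12.7, 16.1 and 12.8 CPM in wild-type DMSO and 325, 307 and 309 CPM in wild-type TCDD. In ahrra-null it stood at 11.7, 10.8, 9.72 and 10.8 CPM with DMSO and 421, 407, 216 and 387 CPM with TCDD. With TCDD, 3 of the 4 ahrra-null libraries lay above all wild-type libraries and replicate 15 below all of them. The rise was 22.6-fold in wild type and 33.2-fold in ahrra-null, with an interaction of 0.56 ± 0.32 (-0.15 to 1.26, adjusted p = 0.963). cyp1c2 rose from 3.62 ± 0.53 to 66.8 ± 7.35 CPM (SD, n = 3) in wild type, and in ahrra-null its exposed libraries measured 92.4, 87.7, 39.9 and 84.6 CPM against 2.47 to 3.26 CPM with carrier. Its interaction was 0.54 ± 0.52 (-0.61 to 1.70, adjusted p = 0.973). CYP1B1 (ENSDARG00000068934), which metabolizes steroids and retinoids as well as xenobiotics, gave 0.03 ± 0.41 (-0.88 to 0.94, adjusted p = 0.997), with 17.2 CPM in replicate 15 and 37.9 to 38.5 CPM in the other exposed ahrra-null libraries. cyp1d1 (ENSDARG00000035569), the member of the family that TCDD does not induce in zebrafish, did not pass for TCDD in either line and gave 0.07 ± 0.14.

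The repressor genes had interaction estimates of opposite sign. ahrra (ENSDARG00000099702), the targeted gene, measured 1.39, 0.612 and 0.810 CPM in wild-type DMSO and 20.5, 14.1 and 17.8 CPM in wild-type TCDD. The ahrra-null libraries held 1.09, 1.42, 0.879 and 1.19 CPM with DMSO and 44.8, 54.5, 21.1 and 52.1 CPM with TCDD. Every exposed ahrra-null library lay above every exposed wild-type library, while the carrier libraries of the lines overlapped, and the mean rise was 42.0 CPM in ahrra-null against 16.5 CPM in wild type. The interaction was 1.00 ± 0.84 (-0.85 to 2.85, unadjusted p = 0.259, adjusted p = 0.973), a wide interval. Carrier levels were low, and without ahrra-null TCDD replicate 15 the estimate was 1.22 ± 0.35 with the same carrier libraries. Where in the gene the nucleases cut is not stated, and a transcript can persist from a disrupted gene, so this level does not check the genotype. ahrrb (ENSDARG00000052618), the paralog that was not targeted, measured 0.853, 0.816 and 0.648 CPM in wild-type DMSO and 5.94, 3.70 and 5.08 CPM in wild-type TCDD. In the null line the values were 0.331, 0.894, 1.098 and 0.320 CPM with DMSO and 2.56, 3.17, 1.57 and 3.63 CPM with TCDD. It rose in both lines, and every exposed ahrra-null library lay below every exposed wild-type library. Its interaction was -0.58 ± 0.52 (-1.68 to 0.52, adjusted p = 0.973).

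The receptor gene and a second feedback gene had narrower intervals. ahr2 (ENSDARG00000021833) measured 67.2, 71.0 and 66.4 CPM in wild-type DMSO and 118, 128 and 116 CPM in wild-type TCDD. The values of ahrra-null were 68.1, 64.8, 60.3 and 63.0 CPM with DMSO and 138, 125, 113 and 132 CPM with TCDD. The levels of the lines overlapped in both exposures, and the rise was 0.82 in wild type and 0.99 in ahrra-null, with an interaction of 0.16 ± 0.09 (-0.02 to 0.35, adjusted p = 0.951). tiparp (ENSDARG00000061841), which encodes an enzyme that ADP-ribosylates AHR and limits its activity in mammals, rose by 0.63 ± 0.11 in wild type and 0.46 ± 0.09 in ahrra-null, an interaction of -0.17 ± 0.14 (-0.48 to 0.13, adjusted p = 0.973). Of the other 19 tested genes of the AHR pathway list, 1 had an unadjusted p under 0.05, against 5.17% of all genes. It was hsp90aa1.1 (ENSDARG00000010478), which encodes an HSP90 chaperone and is expressed mainly in muscle in zebrafish. Its interaction was 0.55 ± 0.24 (adjusted p = 0.948), and it was chosen after its value was seen.

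ctsl.1 (ENSDARG00000003902), which encodes a cathepsin L protease, had the largest interaction estimate on the AHR target list. It measured 2.19, 2.96 and 1.89 CPM in wild-type DMSO and 14.9, 9.57 and 12.8 CPM in wild-type TCDD. In ahrra-null it measured 0.851, 1.73, 1.32 and 0.915 CPM with DMSO and 17.2, 15.8, 9.18 and 14.6 CPM with TCDD. The carrier libraries of ahrra-null all lay below those of wild type, while the exposed libraries overlapped. The interaction was 1.17 ± 0.41 (0.28 to 2.06, unadjusted p = 0.0139, adjusted p = 0.948). The ahrra-null to wild-type difference behind it was -0.98 with carrier and 0.19 with TCDD. The 12 targets that rose in both lines had the same layout as a median: the genotype difference was -0.274 with carrier, lower in ahrra-null for 9 of 12, and 0.000747 with TCDD, higher in ahrra-null for 6 of 12. These genotype differences enter the interaction itself and are given as its parts, with no test. Those with TCDD include ahrra-null replicate 15, the lowest exposed library of its group for all 12 targets. Without it the mean CPM with TCDD was higher in ahrra-null than in wild type for all 12 but CYP1A1, CYP1B1 and ahrrb.

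The remaining targets had interaction intervals that included 0 with all 14 libraries. The growth factor gene fgf7 (ENSDARG00000059387) rose by 3.56 in wild type and 3.62 in ahrra-null, an interaction of 0.06 ± 0.47 (-0.97 to 1.09). FOXQ1 (ENSDARG00000030896), a forkhead transcription factor gene, rose by 1.69 and 1.70 (0.00 ± 0.38). The conjugating enzymes ugt1b5 (ENSDARG00000089507), a glucuronosyltransferase, and sult6b1 (ENSDARG00000086826), a sulfotransferase, gave 0.26 ± 0.16 (-0.07 to 0.59) and 0.24 ± 0.24 (-0.30 to 0.77). The glucuronosyltransferase gene UGT1A1 (ENSDARG00000006220) and the quinone reductase gene NQO1 (ENSDARG00000010250) did not pass for TCDD in either line and gave 0.21 ± 0.37 and 0.07 ± 0.12. foxq1b (ENSDARG00000055395) gave 0.06 ± 0.20, and LFNG (ENSDARG00000037879), a glycosyltransferase that acts on Notch, 0.04 ± 0.09. wfikkn1 (ENSDARG00000101364), a protease inhibitor gene at 1.22 CPM or less in every group mean, gave -0.52 ± 0.72. A pair of IDs share the symbol SLC16A9, a carrier of the monocarboxylate family, and may share reads: ENSDARG00000013926 gave 0.31 ± 0.20 and ENSDARG00000104687 gave 0.04 ± 0.17.

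**Figure D3:**
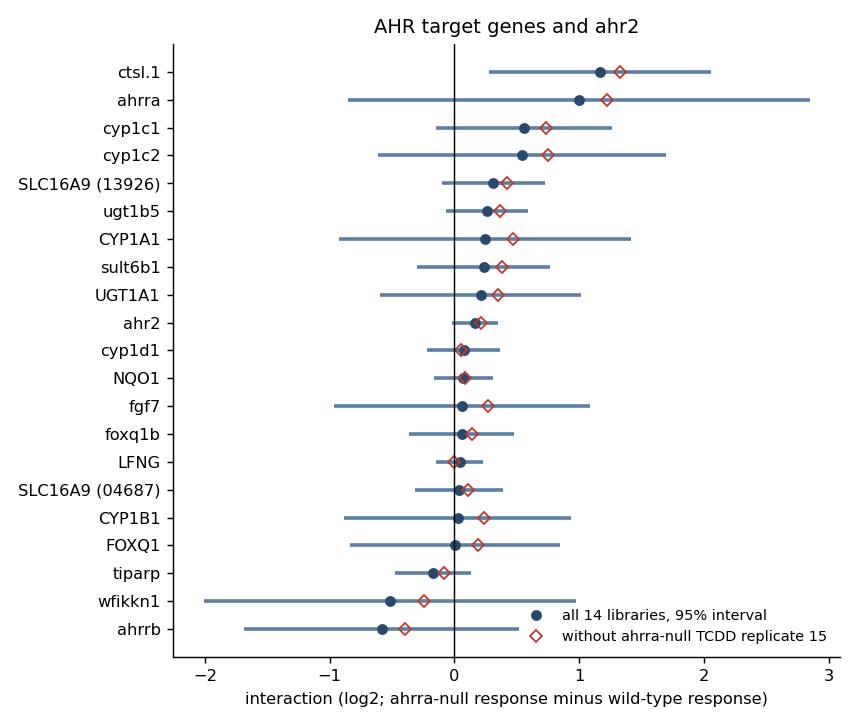
The interaction of each AHR target gene and ahr2 is plotted on a log2 axis with its 95% interval over all 14 libraries, and open diamonds give the estimate without ahrra-null TCDD replicate 15. Most filled points lie at or to the right of 0 with intervals that cross it, apart from ctsl.1 (0.28 to 2.06), and without replicate 15 the estimates of cyp1c1 and ahrra move to 0.73 and 1.22.

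Replicate 15 stood apart in the strength of its TCDD response. Measured against the mean of the carrier libraries of its line, the median log2 response of the 12 targets was 2.55, 2.05 and 2.45 in wild-type replicates 6, 7 and 8, and 3.06, 3.02, 2.15 and 2.96 in ahrra-null replicates 13 to 16. By this median the other 3 ahrra-null libraries lay above all 3 wild-type libraries, and replicate 15 lay within the wild-type range. As a mean over the same 12 targets, replicate 15 stood at 2.48, below wild-type replicates 6, 7 and 8 at 3.11, 2.74 and 2.98. It was the lowest exposed ahrra-null library for 12 of 12 targets and for 125 of the 176 genes that rose in ahrra-null, and the highest for 45 of the 78 that fell. On the log2 scale, its response relative to carrier was 72.3% of that of the other 3 for the median target. The same share was 63% for the median gene that rose and 66.5% for the median gene that fell. A share of a log2 response is not a share of CPM: CYP1A1 stood at 465 CPM against a mean of 1085 CPM in the other 3. The selection of the 254 genes called in ahrra-null used replicate 15 itself. The genes called in wild type were chosen by fold changes that do not use it, though the spread was estimated over all libraries. Of the 104 that rose there, replicate 15 was the lowest exposed ahrra-null library for 75 and the highest for 9, with a share of 62.8%. Of the 81 that fell there, it was the highest for 25 and the lowest for 22, with a share of 86%. What set this library apart was not tested.

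Without replicate 15 the interaction test called 2 of 21581 genes (0.00927%), klf2b and cyp1c1, both positive. The interaction of cyp1c1 became 0.73 ± 0.11 (adjusted p = 0.0175), as its exposed ahrra-null libraries then lay within 387 to 421 CPM and its fold in ahrra-null was 37.6. The estimate for ahrra became 1.22 ± 0.35 (unadjusted p = 0.00249, adjusted p = 0.548), for cyp1c2 0.75 (adjusted p = 0.22), for CYP1A1 0.47 (adjusted p = 0.834), for CYP1B1 0.24 (adjusted p = 0.884) and for ctsl.1 1.33 (adjusted p = 0.275). Of the 20 AHR targets 7 then had an unadjusted p under 0.05 (6.28% of all genes did), 16 were positive, and the list median was 0.253. The 7 were cyp1c1, cyp1c2, ahrra, ctsl.1, ugt1b5 (0.37 ± 0.11), sult6b1 (0.38 ± 0.13) and SLC16A9 (ENSDARG00000013926, 0.42 ± 0.19). For the 12 targets that rose in both lines the median interaction was 0.374, positive for 10. Replicate 15 was singled out because it was low on these same genes, so these p-values are not independent evidence that the lines respond differently. Calls for the TCDD effect in ahrra-null went from 254 to 374 without it, and those in wild type from 185 to 195.

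Since fewer than 10 genes passed, the 20 genes with a symbol and the smallest unadjusted interaction p are described as values that did not pass, with adjusted p from 0.277 to 0.809. Their estimates were positive for 14 and negative for 6, from 0.296 to 3.02 in size. TCDD effects had been called in wild type alone for 5 of them, in ahrra-null alone for 9, in both for 1 and in neither for 5, and for 15 the estimated TCDD effects of the lines had opposite signs.

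Of the 20 genes, klf2b, edn1, ADM and plvapb are known from blood vessels and are described together, as a grouping made after their values were seen and not a list. klf2b (ENSDARG00000040432), a Krüppel-like factor gene of the family that responds to blood flow in endothelium, measured 38.3, 44.6 and 43.8 CPM in wild-type DMSO and 47.2, 48.6 and 40.5 CPM in wild-type TCDD. The ahrra-null libraries held 27.3, 24.1, 22.9 and 26.1 CPM with DMSO and 47.7, 49.5, 41.2 and 63.8 CPM with TCDD. The ahrra-null carrier libraries lay below all the others, and TCDD brought the gene into the wild-type range or above it. It rose in ahrra-null (1.01 ± 0.11, adjusted p = 0.000213), its wild-type effect was 0.11 (adjusted p = 0.926), and the interaction was 0.90 ± 0.17 (0.54 to 1.27, unadjusted p = 0.000104, adjusted p = 0.373). It passed in 4 of 22 alternatives: DESeq2 (adjusted p = 0.00062), limma voom (0.0223), without ahrra-null TCDD replicate 15 (0.0238) and without replicate 16 of the same group (0.0408), and its estimate ran from 0.77 to 0.99 when libraries were left out. Its paralog klf2a (ENSDARG00000042667; chosen after its value was seen) gave -0.01 ± 0.17.

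The endothelin gene edn1 (ENSDARG00000036912), a peptide that constricts vessels and patterns the lower jaw, differed in layout from klf2b, with carrier levels that overlapped between the lines. It measured 3.79, 3.37 and 3.73 CPM in wild-type DMSO and 3.69, 3.26 and 3.85 CPM in wild-type TCDD, against 3.26, 3.84, 2.64 and 3.84 CPM in ahrra-null DMSO and 7.40, 6.00, 4.71 and 6.85 CPM in ahrra-null TCDD. Each exposed ahrra-null library lay above every other library. It rose in ahrra-null (0.87, adjusted p = 0.00129) and the interaction was 0.88 ± 0.23 (0.41 to 1.35, adjusted p = 0.809). ADM (ENSDARG00000015263, a symbol shared by 2 IDs that may share reads), which encodes the vessel-widening peptide adrenomedullin, measured 5.30 to 6.02 CPM over the 6 wild-type libraries, 5.20 to 6.64 CPM in ahrra-null DMSO and 10.7, 10.3, 6.80 and 11.7 CPM in ahrra-null TCDD. It rose in ahrra-null (0.75, adjusted p = 0.0022), with an interaction of 0.79 ± 0.21 (0.36 to 1.21, adjusted p = 0.809, and 0.0643 without replicate 15). plvapb (ENSDARG00000045003), a protein of the diaphragms of fenestrated capillaries, fell in wild type from 25.9, 24.9 and 24.8 CPM to 17.3, 16.6 and 18.6 CPM (-0.53, adjusted p = 0.00151). In the null line the values were 24.1, 18.9, 20.7 and 22.4 CPM with DMSO and 22.3, 21.8, 19.1 and 20.1 CPM with TCDD, overlapping ranges, and the interaction was 0.48 ± 0.12 (adjusted p = 0.695).

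NPAS4 and egr4, both on the immediate early list described below, had positive estimates. NPAS4 (ENSDARG00000055752, a symbol shared by 2 IDs), a transcription factor gene of active neurons, measured 27.1, 19.2 and 15.6 CPM in wild-type DMSO and 5.05, 7.88 and 10.8 CPM in wild-type TCDD. The values of ahrra-null were 39.2, 46.5, 35.0 and 38.3 CPM with DMSO and 49.6, 46.0, 41.9 and 49.3 CPM with TCDD. It fell in wild type without overlap (-1.41, adjusted p = 0.0341), its effect in ahrra-null was 0.23 (adjusted p = 0.718), and all ahrra-null libraries lay above all wild-type libraries. The interaction was 1.64 ± 0.32 (0.94 to 2.34, unadjusted p = 0.000343, adjusted p = 0.695), and it passed in 3 alternatives: edgeR without the robust option (adjusted p = 0.0439), DESeq2 (0.0106) and limma voom (0.00993). egr4 (ENSDARG00000077799), an early growth response gene, measured 15.9, 10.6 and 10.04 CPM in wild-type DMSO and 6.28, 7.45 and 7.76 CPM in wild-type TCDD, against 19.5, 18.4, 15.5 and 18.2 CPM in ahrra-null DMSO and 24.0, 19.996, 20.5 and 30.4 CPM in ahrra-null TCDD. Its exposed libraries lay below the carrier libraries in wild type and above them in ahrra-null. The TCDD effect passed in neither line (-0.77, adjusted p = 0.122 in wild type, and 0.40, adjusted p = 0.32 in ahrra-null). The interaction was 1.17 ± 0.25 (0.64 to 1.71, adjusted p = 0.695, and 0.00163 by DESeq2).

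The smallest unadjusted p of the 20, with an adjusted p of 0.277, belonged to histh1l1 (ENSDARG00000035519), a linker histone H1 gene. It measured 244, 244 and 211 CPM in wild-type DMSO and 211, 196 and 194 CPM in wild-type TCDD, against 667, 670, 589 and 608 CPM in ahrra-null DMSO and 776, 745, 709 and 823 CPM in ahrra-null TCDD. All ahrra-null libraries stood far above wild type, and TCDD raised the gene in ahrra-null (0.27, adjusted p = 0.0221). The interaction was 0.49 ± 0.09 (0.30 to 0.68, unadjusted p = 2.42e-05). pnp4a (ENSDARG00000057575), a purine nucleoside phosphorylase gene of the iridophores that make reflective pigment, fell in wild type from 45.7, 39.3 and 45.8 CPM to 31.0, 30.1 and 29.8 CPM (-0.52, adjusted p = 0.000171). In ahrra-null it measured 50.2, 56.7, 59.4 and 52.5 CPM with DMSO and 50.9, 53.3, 53.3 and 51.8 CPM with TCDD, overlapping ranges. The interaction was 0.46 ± 0.09 (0.27 to 0.65, adjusted p = 0.28). nt5c2l1 (ENSDARG00000034852), a nucleotidase gene, rose in wild type from 10.1, 12.8 and 11.6 CPM to 21.8, 19.8 and 24.5 CPM (0.93, adjusted p = 1.25e-05). The ahrra-null libraries held 18.2, 15.7, 16.97 and 18.2 CPM with DMSO and 20.5, 23.8, 19.2 and 18.5 CPM with TCDD. Each exposed library was above the carrier range in both lines, by less in ahrra-null, where the effect did not pass, and the interaction was -0.69 ± 0.14 (-0.98 to -0.40, adjusted p = 0.28, and 0.0357 by DESeq2).

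**Figure D4:**
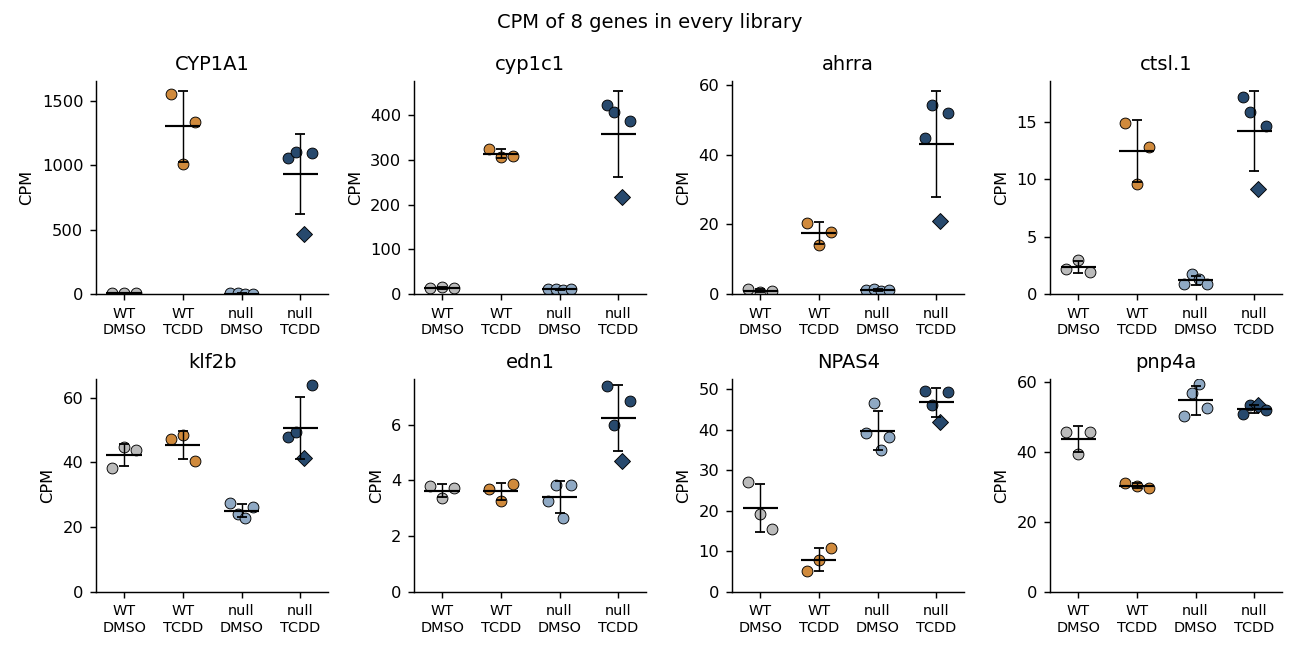
CPM of 8 genes are plotted for every library, with bars for the mean and SD of each group (n = 3 or 4) and a diamond for ahrra-null TCDD replicate 15, each panel on its own axis from 0. For CYP1A1, cyp1c1 and ahrra the diamond lies below the other exposed ahrra-null libraries (465, 216 and 21.1 CPM), the exposed ahrra-null libraries of edn1 lie above every other library, and those of NPAS4 and pnp4a lie above all exposed wild-type libraries.

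Genes of heme synthesis and oxygen binding were also among the 20, another grouping made after their values were seen. Their interactions differed in sign. alas2 (ENSDARG00000038643), the first enzyme of heme synthesis in red cells, measured 29.2 ± 1.22 and 31.7 ± 0.74 CPM in wild-type DMSO and TCDD and 60.6 ± 3.85 and 47.4 ± 5.70 CPM in ahrra-null (SD, n = 3 and 4). It fell in ahrra-null (-0.35, adjusted p = 0.00617), with an interaction of -0.47 ± 0.11 (adjusted p = 0.695). UROD (ENSDARG00000006818), a later enzyme of the same pathway, gave -0.64 ± 0.17 (adjusted p = 0.809) and passed for TCDD in neither line. The myoglobin gene mb (ENSDARG00000031952) was the 1 gene of the 20 called in both lines. It fell from 162 ± 4.74 to 104 ± 7.65 CPM in wild type (-0.65 ± 0.06) and from 188 ± 9.26 to 149 ± 6.29 CPM in ahrra-null (-0.33 ± 0.05), an interaction of 0.31 ± 0.08 (0.15 to 0.48, adjusted p = 0.809).

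The rest of the 20 belonged to several tissues. serpina10a (ENSDARG00000005924), a serpin gene related to an inhibitor of clotting proteases, rose in ahrra-null (0.26 ± 0.05, adjusted p = 0.0064) and gave 0.38 ± 0.08 (adjusted p = 0.312, and 0.0326 by DESeq2). TXNIP (ENSDARG00000036107, a symbol shared by 2 IDs), an inhibitor of thioredoxin, rose in ahrra-null from 280 ± 7.83 to 356 ± 33.6 CPM (0.35, adjusted p = 0.00959) and gave 0.42 ± 0.11 (adjusted p = 0.809). The keratin gene cyt1 (ENSDARG00000092947) passed for TCDD in neither line and gave 0.59 ± 0.14 (adjusted p = 0.726); without wild-type DMSO replicate 4 its adjusted p was 0.00205. The lens crystallin gene crygm2d15 (ENSDARG00000069826) fell in ahrra-null (-0.26, adjusted p = 0.0151) and gave -0.34 ± 0.08 (adjusted p = 0.726). SERPINE3 (ENSDARG00000057108), another serpin gene, fell in ahrra-null (-0.59 ± 0.15, adjusted p = 0.0457) and gave -0.94 ± 0.23 (adjusted p = 0.726). brdt (ENSDARG00000102802), a bromodomain gene known from testis in mammals, gave 0.30 ± 0.07, and PIP5KL1 (ENSDARG00000060946), related to lipid kinases, gave -0.76 ± 0.19. The estimate of the trypsin-like protease gene prss59.1 (ENSDARG00000079274) was 3.02 ± 0.79 (adjusted p = 0.809), on low counts, with 1.81, 0.561 and 0.324 CPM in wild-type DMSO replicates 2, 3 and 4.

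Among genes called for TCDD in either line whose log2 CPM averaged 1 or more, the 5 most negative interactions were those of SERPINE3, mamdc2b, BFSP1, nt5c2l1 and RNF180, and the 5 most positive those of NPAS4, ctsl.1, FHL5, ahrra and klf2b. mamdc2b (ENSDARG00000073695), an extracellular matrix gene, rose in both lines, by 2.33 ± 0.27 in wild type and 1.48 ± 0.19 in ahrra-null (interaction -0.85 ± 0.34, -1.59 to -0.12, adjusted p = 0.948). FHL5 (ENSDARG00000014805), a LIM-domain cofactor gene, fell in both, by 2.26 and 1.18 on the log2 scale (1.08 ± 0.44, 0.15 to 2.00, adjusted p = 0.948). Its wild-type DMSO libraries spread widely, at 7.52, 5.82 and 3.08 CPM, and its fall in ahrra-null did not pass without replicate 15 (adjusted p = 0.0628). BFSP1 (ENSDARG00000074919), a filament protein of lens fibres, and RNF180 (ENSDARG00000073720), a ubiquitin ligase, fell in ahrra-null (-0.85 and -0.75, adjusted p = 0.0329 and 0.02). Their wild-type effects were -0.09 and -0.08, and their interactions -0.76 ± 0.28 and -0.67 ± 0.26, with ahrra-null DMSO replicate 12 above the other libraries of its group for both. In wild-type DMSO replicates 2, 3 and 4 BFSP1 measured 5.38, 9.03 and 10.9 CPM and RNF180 1.60, 2.09 and 2.92 CPM.

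Gene lists for pathways and tissues were described by the counts and medians of their tested members, with no test of a list. In whole embryos fewer cells of a type and less RNA per cell cannot be told apart. Of the 36 immediate early genes, which cells switch on within minutes of a stimulus, 11 had a positive interaction with an unadjusted p under 0.05 (30.6%, against 2.9% of all genes) and 0 a negative one. The estimate was positive for 28, with a median of 0.12. The TCDD effect was below 0 for 26 of them in wild type and above 0 for 24 in ahrra-null. With carrier 32 of 36 were higher in ahrra-null, by a median of 0.372. Besides klf2b, NPAS4 and egr4 they include egr1 (ENSDARG00000037421; chosen after its value was seen), which measured 53.8 ± 10.5 and 40.5 ± 5.19 CPM in wild-type DMSO and TCDD and 72.6 ± 6.04 and 82.1 ± 14.02 CPM in ahrra-null (interaction 0.59 ± 0.22, adjusted p = 0.948). The median of the list ran from 0.0828 to 0.172 over 22 alternatives. Genes of this class can respond to handling within minutes, and the order in which the libraries were collected is not stated, so its part in the result was not tested.

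Of 30 tested cell cycle genes, 28 had a negative interaction, with a median of -0.234, and 9 an unadjusted p under 0.05 (30.0%, against 2.27% of all genes), or 14 without replicate 15 (2.79% of all genes then). The TCDD effect in ahrra-null was below 0 for all 30, with a median of -0.251, and in wild type for 18, with a median of -0.0308. The mean log2 level of the list was 4.79, 4.86, 4.93 and 5.04 in ahrra-null DMSO replicates 9 to 12. It was 4.60, 4.64, 4.79 and 4.64 in ahrra-null TCDD replicates 13 to 16. Without ahrra-null DMSO replicate 12, the highest, the median interaction was -0.208. Examples chosen after their values were seen are the mitotic kinase gene plk1 (ENSDARG00000058471) and the spindle motor gene kif11 (ENSDARG00000010948). plk1 measured 44.8, 51.9 and 57.2 CPM in wild-type DMSO and 54.1, 53.3 and 53.5 CPM in wild-type TCDD, against 45.7, 48.0, 48.8 and 50.6 CPM in ahrra-null DMSO and 38.7, 39.6, 43.1 and 38.2 CPM in ahrra-null TCDD. The exposed ahrra-null libraries lay below every other library, and the gene fell there (-0.27, adjusted p = 0.0299), with an interaction of -0.34 ± 0.10 (adjusted p = 0.872). kif11 fell in ahrra-null from 72.0 ± 5.36 to 58.2 ± 3.98 CPM (-0.31, adjusted p = 0.0151) and stood at 71.8 ± 6.83 and 70.5 ± 3.49 CPM in wild type (interaction -0.28 ± 0.10, adjusted p = 0.948). The list median ran from -0.287 to -0.167 over the alternatives. The genes of a list were read from the same libraries and are not independent of each other.

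Lens crystallin genes, the structural proteins of the lens, shared that direction: 20 of 24 had a negative interaction, 7 at an unadjusted p under 0.05 (29.2%, against 2.27% of all genes), with a median of -0.216. With TCDD the median change was 0.00675 in wild type and -0.224 in the null line. The mean log2 level of the list was highest in ahrra-null DMSO replicate 12, at 6.05 against 5.73 to 5.80 in the other libraries of that group, and the median became -0.141 without that library.

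Lists of digestive organs and photoreceptors had positive medians that rested in part on the wild-type carrier libraries. The mean log2 level of the exocrine pancreas list was 2.28, 1.63 and 1.03 in wild-type DMSO replicates 2, 3 and 4. The median interaction of its 10 genes was 0.986, and 0.546 without replicate 2. The liver list, with a positive interaction for 33 of 35 genes, had a median of 0.215. It was -0.00117 without that library, 0.105 without ahrra-null TCDD replicate 13 and 0.422 without wild-type DMSO replicate 4. The photoreceptor list, positive for 32 of 35, had 0.275, and 0.0667, 0.144 and 0.49 with the same libraries left out. For the intestine list of 16 genes the median was 0.30, and 0.0185, 0.166 and 0.435 with these left out. These lists stood highest in replicate 2 and lowest in replicate 4 of wild-type DMSO (5.78, 5.39 and 4.87 for photoreceptors, 4.06, 3.79 and 3.31 for liver), and the part of this spread in their interaction was not tested beyond those values.

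Other lists bear on organs and pathways that TCDD is known to affect. The heart muscle list had a median of 0.171, with a positive interaction for 16 of 20 genes and 4 positive at an unadjusted p under 0.05 (2.9% of all genes). Of 26 vascular endothelium genes 2 had a positive interaction at an unadjusted p under 0.05 and 0 a negative one (2.9% and 2.27% of all genes). The median was 0.0328, and klf2b, edn1, ADM and plvapb are not on that list. The 29 genes of the Nrf2 and oxidative stress response, which shares enzymes with the AHR response, held 0 at that level and a median of 0.0275. Cartilage genes, which build the jaw, held 1 of 27, positive (2.9% of all genes), with a median of 0.0358. Of 15 erythroid genes 1 was positive and 4 were negative at that level (2.9% and 2.27% of all genes), with a median of -0.085 that ran from -0.151 to 0.0305 over the alternatives.

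**Figure D5:**
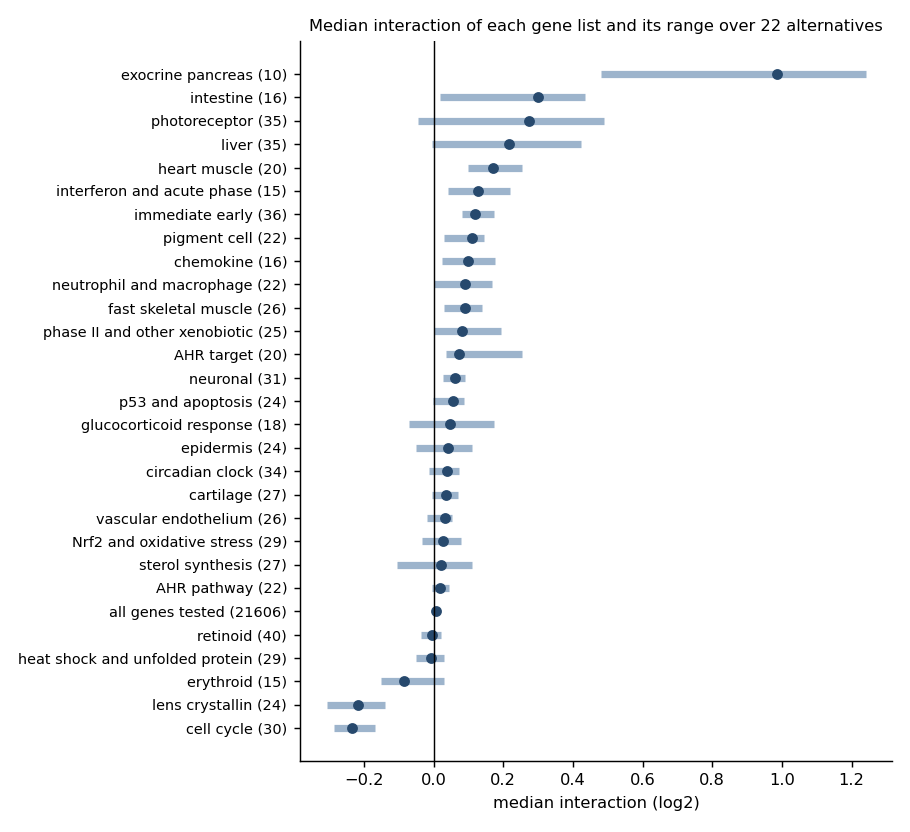
The median interaction of each gene list (dots, log2, with the number of tested genes in brackets) is plotted with its range over 22 alternatives (bars), which include leaving out each library. The cell cycle and lens lists stay below 0 (-0.287 to -0.167 and -0.307 to -0.141). The immediate early and exocrine pancreas lists stay above it (0.0828 to 0.172 and 0.48 to 1.24), and the liver and photoreceptor bars cross 0.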

How the data were processed

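Whole-number read counts per Ensembl gene, not normalized, were used as the authors deposited them for all 14 libraries. The submitters' processing notes name the genome build GRCz10 and, as tools, HTSeq, TopHat2, cutadapt, edgeR and SAMtools. Their versions, the annotation and the counting of multiply matching reads are not given here, so reads of close paralogs may be lost or split. Groups came from the sample titles.

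Genes were filtered with filterByExpr (minimum count 10), which left 21606 of 32105 genes with 99.9% of counts. Counts were scaled by TMM and fitted over 4 groups with edgeR's robust quasi-likelihood model (common biological coefficient of variation 7.19%, prior count 0.125). The interaction was ahrra-null TCDD minus DMSO, less wild-type TCDD minus DMSO. A gene was called at an adjusted p under 0.05. Intervals cover 95%. The code was tested on simulated data. List levels are means of log2(CPM + 0.5).

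Named genes are the 20 with the smallest interaction p and a plain symbol, and all AHR targets with ahrra, ahrrb and ahr2. The 5 most positive and 5 most negative interactions among TCDD-called genes with such a symbol and average log2 CPM of at least 1 were added. Of 723 symbols in 28 lists, 631 were found, as 738 IDs. Some may be paralogs of the gene meant. The comparison, the lists and the rules were chosen with earlier results of these data known. Symbols came from a table matching 26269 IDs.

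Alternatives were other scalings, filters, DESeq2, limma voom with sample weights, no robust estimation, a 2-fold threshold, 1 surrogate variable, fits of only 2 groups for the TCDD effects, and leaving out each library. The software was DESeq2 1.42.0, edgeR 4.0.16, sva 3.50.0 and limma 3.58.1 in R 4.3.3.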

Additional observations from a re-analysis of the deposited data

Results flagged for a closer look

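In groups of 4 libraries, all of them ahrra-null, the highest or lowest was compared with its nearest neighbour. Of 91 such groups over 45 genes, 10 held a library that stood apart, 8 of them ahrra-null TCDD replicate 15. Chance alone marks about 1 in 20 groups, and AHR targets move together, so these are not separate events. The wild-type groups, of 3 libraries each, were not examined by this rule, so no wild-type library was eligible. Over all 14 libraries, limma voom gave its lowest sample weight to wild-type DMSO replicate 4 (0.449), against 0.868 for ahrra-null TCDD replicate 15.

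In ahrra-null TCDD replicate 15, CYP1A1 stood at 465 CPM against 1057 to 1103 CPM in the other 3 libraries. CYP1B1 stood at 17.2 CPM against 37.9 to 38.5 CPM, cyp1c1 at 216 CPM against 387 to 421 CPM and cyp1c2 at 39.9 CPM against 84.6 to 92.4 CPM. The same library was low for fgf7, at 18.1 CPM against 38.4 to 40.8 CPM, and for ugt1b5, at 39.5 CPM against 54.2 to 56.5 CPM. Its median log2 response of the 12 AHR targets induced in both lines was 2.15 against 2.96 to 3.06. It was high for LFNG, a Notch glycosyltransferase gene that TCDD did not move past the threshold in either line, at 124 CPM against 109 to 111 CPM. What set the library apart was not tested.

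In ahrra-null DMSO replicate 12, the lens filament gene BFSP1 stood at 13.2 CPM against 9.997 to 10.5 CPM, and RNF180 at 4.03 CPM against 3.31 to 3.42 CPM. Both are among the most negative interactions of the TCDD-called genes ranked above, to which a high carrier library contributes.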

How the results depend on the processing

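The count of interaction calls was 0 with the other scalings, filters, a 2-fold threshold and 1 surrogate variable. It was 1 without robust estimation, 8 with DESeq2 and 6 with voom, and 0 to 10 when a library was left out. Calls for TCDD in wild type were 381 with voom, 368 with 1 surrogate variable and 82 to 388 with a library left out. In ahrra-null they were 396 with 1 surrogate variable and 141 to 374 with a library left out. The sign of some small estimates changed. With 1 surrogate variable these were CYP1B1 (-0.13), NQO1 (-0.0044), FOXQ1 (-0.093), foxq1b (-0.029), fgf7 (-0.13) and UGT1A1 (-0.17). FOXQ1 was -0.0089 with no filter, and SLC16A9 (ENSDARG00000104687) -0.037 with voom. With a library left out the ranges were -0.11 to 0.24 for CYP1B1, -0.022 to 0.16 for cyp1d1, -0.025 to 0.14 for NQO1, -0.17 to 0.19 for FOXQ1, -0.062 to 0.15 for foxq1b, -0.14 to 0.27 for fgf7, -0.0096 to 0.42 for UGT1A1, -0.10 to 0.13 for SLC16A9 (ENSDARG00000104687) and -0.043 to 0.10 for LFNG. The cause was not tested. No paired analysis was possible because the replicate numbers differ in every library. Depth limits genes with average log2 CPM under 1, where the median interval reached 0.894 to either side.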

Other observations

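The 22 pigment cell genes had median TCDD effects of -0.0214 in wild type and 0.016 in ahrra-null, with an interaction positive for 15 and a median of 0.11. At an unadjusted p under 0.05, 2 were positive (2.9% of all genes) and 1 negative (2.27%). The members named here were chosen after their values were seen. gch2 (ENSDARG00000099101), the first enzyme of pteridine pigment synthesis, measured 102, 113 and 125 CPM in wild-type DMSO and 153, 156 and 166 CPM in wild-type TCDD, and rose (0.48, adjusted p = 0.000374). In ahrra-null it measured 151 ± 11.3 CPM with DMSO and 170 ± 7.89 CPM with TCDD (0.17, adjusted p = 0.24), and the interaction was -0.31 ± 0.09 (unadjusted p = 0.00297, adjusted p = 0.876). TYRP1 (ENSDARG00000029204, a symbol shared by 2 IDs), a melanin synthesis gene, fell in wild type from 67.6 ± 1.85 to 53.6 ± 0.63 CPM (adjusted p = 0.0136) and gave 0.25 ± 0.09 (adjusted p = 0.948).

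Heart muscle genes had negative TCDD medians in both lines. Of 20 tested, 4 fell in wild type (0.375% of all genes), where the median effect was -0.355, and 1 in ahrra-null (0.361% of all genes), where it was -0.117. The interaction was positive for 16, with a median of 0.171 (0.0991 to 0.255 over the alternatives) and 4 at an unadjusted p under 0.05 (2.9% of all genes). The members named here were chosen after their values were seen. The myosin heavy chain gene MYH7 (ENSDARG00000079782) measured 7.46, 7.24 and 6.86 CPM in wild-type DMSO and 4.92, 5.003 and 4.71 CPM in wild-type TCDD. In ahrra-null it measured 8.61 ± 1.32 CPM with DMSO and 9.35 ± 1.78 CPM with TCDD, and the interaction was 0.68 ± 0.19 (unadjusted p = 0.00172, adjusted p = 0.872). The atrial natriuretic peptide gene nppa (ENSDARG00000052960) fell in both lines (-1.29 and -0.97, adjusted p = 0.00202 and 0.00546), with an interaction of 0.33 ± 0.29.

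The lysozyme gene lyz (ENSDARG00000057789), a marker of neutrophils and macrophages, was called by voom alone (adjusted p = 0.04 there and 0.872 by edgeR). It measured 20.4, 16.3 and 18.95 CPM in wild-type DMSO, 21.04, 23.9 and 22.2 CPM in wild-type TCDD, 17.4, 19.6, 24.1 and 25.1 CPM in ahrra-null DMSO and 13.04, 11.2, 17.2 and 8.51 CPM in ahrra-null TCDD. The exposed ahrra-null libraries lay below all carrier libraries of that line, and the interaction was -1.05 ± 0.27. The neutrophil and macrophage list that holds it had the other sign, with a positive interaction for 14 of 22 genes, a median of 0.0912, and 3 positive and 1 negative at an unadjusted p under 0.05 (2.9% and 2.27% of all genes).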
